A study of Mus musculus with 10 samples.

Results

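The alveolar type 1 (AT1) cell genes described here are 10 genes widely used as markers of that cell, namely Ager, Cav1, Gprc5a, Hopx, Emp2, Clic5, Spock2, Akap5, Pdpn and Rtkn2. They were taken by gene name from a table of 54532 genes, and each name matched 1 row. The lungs came from WT mice of the C57/BL6 strain at P14. The IncPBF group (5 lungs) had received a fistula between the abdominal aorta and the inferior vena cava at P7, which raises pulmonary blood flow. The sham group (5 lungs) had the same laparotomy at P7 without the puncture. The methods describe pups of either sex, and the labels give neither sex nor litter. The tissue was whole lung, so the level of an AT1 gene cannot separate fewer AT1 cells from less RNA per AT1 cell.

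AT1 cells are the thin, flat cells that cover most of the inner surface of the lung and form, with the capillary endothelium beneath them, the barrier across which gas is exchanged. They arise from distal epithelial progenitors before birth and from alveolar type 2 (AT2) cells, the makers of surfactant, when septa grow or heal. At P14 the mouse lung is still building septa, so AT1 cells are being added and stretched. Some of the 10 genes are shared with other cells. Cav1 and Emp2 are also made by endothelial cells, and Pdpn is also made by lymphatic endothelial and mesothelial cells.

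The upstream sequences of 3 of the genes are shown because these genes stand for the most abundant transcript (Ager), the marker that also acts in the nucleus (Hopx) and the largest difference between the groups (Clic5). Each is the 250 bases before the first start site in RefSeq on GRCm38.p6, read 5′ to 3′ on the strand of the gene. Overlap with annotated exons was not examined. They lie at chr17:34597600-34597849 (plus strand, Ager), chr5:77115124-77115373 (minus strand, Hopx) and chr17:44188322-44188571 (plus strand, Clic5). The single stretch in capitals, in Hopx, is the match described after them.
Ager: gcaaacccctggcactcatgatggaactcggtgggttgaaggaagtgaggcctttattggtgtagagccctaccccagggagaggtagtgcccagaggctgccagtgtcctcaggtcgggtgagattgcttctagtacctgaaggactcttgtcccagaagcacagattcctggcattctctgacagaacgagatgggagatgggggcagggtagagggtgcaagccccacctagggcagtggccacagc
Hopx: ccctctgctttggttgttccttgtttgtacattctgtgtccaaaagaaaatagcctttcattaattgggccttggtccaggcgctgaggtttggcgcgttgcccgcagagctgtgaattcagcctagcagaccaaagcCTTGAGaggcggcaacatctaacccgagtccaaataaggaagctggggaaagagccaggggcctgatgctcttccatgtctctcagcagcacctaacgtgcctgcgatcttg
Clic5: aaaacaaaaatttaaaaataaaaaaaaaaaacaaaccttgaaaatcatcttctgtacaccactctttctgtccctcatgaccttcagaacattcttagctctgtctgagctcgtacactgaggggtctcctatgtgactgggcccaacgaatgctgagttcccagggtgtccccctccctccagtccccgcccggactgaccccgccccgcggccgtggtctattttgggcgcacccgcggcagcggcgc

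Upstream windows were in the RefSeq table for 8 of the 10 genes, 10 windows in all, and Gprc5a and Rtkn2 were not matched. For comparison, 3 strings of letters tied to factors that act in AT1 cells were searched on both strands. GGAATG, the core of the TEAD motif, was in 0 of the 10 windows and in 12.6% of 32851 windows of all genes. The string of the GATA family of factors, AGATAA, was in 0 of the 10 and in 9.99% of all windows. CTCAAG, a core of the NKX2-1 motif, was in 2 of the 10 and in 13.3% of all windows. In Hopx it lay 112 bases before the start and in Spock2 207 bases before it, in both on the strand opposite to the gene, where the gene strand reads CTTGAG. The strings did not overlap one another, and a match in these letters is a description of the window only.

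The authors deposited FPKM, which divides the fragments read from a gene by its length in kilobases and by the size of the library, so levels can be set side by side between genes. Fragments on genes numbered 16103423 to 20318525 per lung, and each AT1 gene had 1398 to 39652 fragments in each lung. Such depth speaks to counting error only. Some lungs stood apart in other genes. Xist, the RNA of the inactive X chromosome, was at 52.4 to 66.5 FPKM in IncPBF lungs 2 to 5, and at 0.0144 in IncPBF lung 1 and at most 0.0770 in the sham lungs. Ddx3y, on the Y chromosome, was at 18.6 FPKM in IncPBF lung 1 and 21.8 to 24.6 in the sham lungs, and at most 0.00926 in the other IncPBF lungs. Group and sex-linked expression therefore differ together in 9 of 10 lungs. Markers of ciliated and club cells, which line the airways, summed to 245 FPKM in sham lung 5 and to 12679 in sham lung 3, against 5127 to 10782 in the IncPBF lungs; of the 7 genes 0 passed in either direction (1 was lower at an unadjusted p under 0.05, in limma and in limma-voom).

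Most AT1 genes were lower in the IncPBF lungs. Each gene was compared on log2(FPKM + 0.1) with limma over the 15388 genes with a mean of at least 0.5 FPKM, and called when the Benjamini-Hochberg adjusted p was under 0.05. All 10 AT1 genes entered this test. Of them 9 fell and 0 rose, where 16.2% of all tested genes fell and 16.1% rose; 0 of the 10 were higher at an unadjusted p under 0.05 in limma or limma-voom. The exception was Spock2. The call of every one of the 9 was lost in 3 other fits, named here by what they took into account. The Xist fit had log2 Xist as a covariate. In it 0 of the 10 genes were lower, where 2.68% of all tested genes were. At an unadjusted p under 0.05, 7 of the 10 were lower, as were 1612 of all 15388 tested genes. The lung 1 fit set IncPBF lung 1 alone, the only IncPBF lung with Ddx3y, against the sham lungs. Its median log2 fold change over the 10 genes was -0.48. The mesothelial fit had the mean level of mesothelial markers as a covariate. There 0 of the 10 genes were lower, where 2.32% of all tested genes were. At an unadjusted p under 0.05, 4 of the 10 were lower, as were 1421 of all 15388. Calls on other genes that were lost in these fits are given with each group. For 8 of the 10 genes the highest IncPBF lung was under the lowest sham lung, a pattern that 11.2% of all tested genes showed. The median log2 fold change was -0.49 over the 10 genes and 0.01 over all tested genes. Mean levels in the IncPBF group were 59.0% of the sham level for Clic5, the lowest, and 77.4% for Akap5 and Pdpn, the highest. Summed over the 10 genes, the IncPBF lungs held 1606 to 1757 FPKM against 1999 to 2695 for sham.

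**Figure D1:**
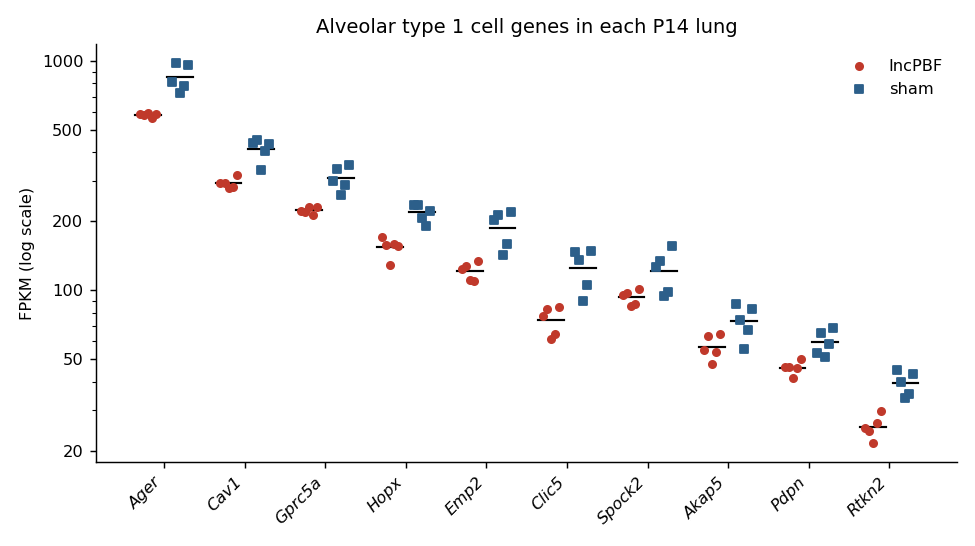
FPKM on a log axis of the 10 AT1 genes in each lung, with IncPBF lungs as red circles and sham lungs as blue squares, ordered by sham level; black lines are group means (n = 5 lungs each). The points of the groups are apart for 8 genes and overlap for Akap5 and Spock2.

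Ager, which encodes the receptor RAGE on the basal face of AT1 cells, is at 34597862 to 34600936 on the plus strand of chromosome 17 (GRCm38). It was at 586, 584, 595, 565 and 588 FPKM in IncPBF lungs 1 to 5. The sham lungs had 810.4, 983, 725, 783 and 964 FPKM. The IncPBF lungs lay within a narrow band, with a coefficient of variation of 1.89% against 13.4% among the sham lungs. The group means were 584 ± 11.0 and 853 ± 114 FPKM (SD, n = 5), a log2 fold change of -0.54 (SE 0.09, adjusted p = 0.00157). In the sham lungs Ager ranked 19 among all genes by FPKM. Genes for ligands that RAGE can bind went the other way or did not pass. Of 6 tested, 2 rose (16.1% of all tested genes did) and 0 fell. S100b rose from 1.41 ± 0.596 to 4.36 ± 1.23 FPKM (log2 fold change 1.61, SE 0.29, adjusted p = 0.00181). Hmgb1, a chromatin protein that can be released from cells, rose from 21.2 ± 2.72 to 26.6 ± 1.48 FPKM (log2 fold change 0.33, SE 0.08, adjusted p = 0.0104), with overlap of the groups. Both calls were lost in the Xist, lung 1 and mesothelial fits, with adjusted p = 0.146, 0.241 and 0.209 for S100b and 0.278, 0.401 and 0.296 for Hmgb1. S100a8, S100a9, S100a4 and S100a6 had log2 fold changes of 0.40, 0.40, 0.26 and 0.04 and did not pass. No ligand gene was lower at an unadjusted p under 0.05 in limma or limma-voom.

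Pdpn encodes podoplanin, a glycoprotein on the apical face of AT1 cells that anchors the cytoskeleton through ERM proteins. Its gene is at 143267431 to 143299564 on the minus strand of chromosome 4. The IncPBF lungs had 46.3, 46.3, 41.6, 45.7 and 50.4 FPKM and the sham lungs 53.5, 65.5, 51.3, 58.3 and 68.9 FPKM. The gap between the groups was narrow, from 50.4 in IncPBF lung 5 to 51.3 in sham lung 3. Pdpn fell by 0.36 on the log2 scale (SE 0.09, adjusted p = 0.00839). All 6 tested partner genes passed, 5 of them lower, where 16.2% of all tested genes fell. The 5 lower calls were lost in the Xist, lung 1 and mesothelial fits (adjusted p from 0.0935 to 0.534). Ezr, Rdx and Msn, which encode the ERM proteins ezrin, radixin and moesin, had log2 fold changes of -0.30, -0.35 and -0.24 (adjusted p = 0.00357, 0.00934 and 0.0215). Cd9, a tetraspanin, fell by 0.30 on the log2 scale, and Clec1b, the platelet receptor for podoplanin, by 0.71. Cd44, a hyaluronan receptor that binds podoplanin, rose from 19.3 ± 2.65 to 36.2 ± 1.87 FPKM (log2 fold change 0.91, SE 0.08, adjusted p = 3.44e-05), and lost its call in the lung 1 fit (adjusted p = 0.0675).

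Clic5, a chloride intracellular channel family protein that links membranes to the actin cytoskeleton, had the largest difference of the 10 genes. It is at 44188584 to 44280172 on the plus strand of chromosome 17. Its levels were 77.4, 83.0, 61.2, 64.6 and 84.4 FPKM in IncPBF lungs 1 to 5 and 147, 136, 89.6, 106 and 149 FPKM in sham lungs 1 to 5. All IncPBF lungs lay below sham lung 3, the lowest sham lung. The means were 74.1 ± 10.7 and 126 ± 26.7 FPKM, a log2 fold change of -0.74 (SE 0.15, adjusted p = 0.00371). Of the other tested members of its family, Clic4 fell from 162 ± 9.26 to 120.3 ± 7.35 FPKM (log2 fold change -0.43, adjusted p = 4.85e-04). Clic3 fell by 0.20 on the log2 scale (adjusted p = 0.0159), and with an equal total per lung or without sham lungs 3 and 5 it did not pass. In the Xist, lung 1 and mesothelial fits neither Clic4 nor Clic3 passed (adjusted p from 0.0624 to 0.492). Clic1 and Clic6 had log2 fold changes of 0.09 and 0.35 and did not pass.

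Emp2, a membrane protein of the PMP22 family that marks AT1 cells and also takes part in caveola traffic, is at 10281749 to 10313968 on the minus strand of chromosome 16. The IncPBF lungs had 124, 128, 111, 109.8 and 134 FPKM and the sham lungs 204, 213, 143, 159 and 219 FPKM. No IncPBF lung reached the lowest sham lung. Emp2 fell by 0.61 on the log2 scale (SE 0.12, adjusted p = 0.00319). Its relative Emp1 moved the opposite way, from 89.4 ± 4.75 in the sham lungs to 102 ± 4.45 FPKM in the IncPBF lungs (log2 fold change 0.18, adjusted p = 0.0226). Without sham lungs 3 and 5, Emp1 did not pass (adjusted p = 0.0681), nor did it in the Xist, lung 1 and mesothelial fits (0.511, 0.628 and 0.250). Emp3 and Pmp22 had log2 fold changes of 0.28 and -0.18 with adjusted p = 0.0519 and 0.0687.

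Cav1 encodes caveolin-1, the coat protein of caveolae, the membrane pits that AT1 and endothelial cells carry in large numbers. It is at 17306335 to 17341452 on the plus strand of chromosome 6. The levels were 294, 294, 281, 283 and 318 FPKM in the IncPBF lungs and 441, 452, 337, 406 and 434 FPKM in the sham lungs. The groups did not overlap, and the log2 fold change was -0.49 (SE 0.09, adjusted p = 0.00160). Of 6 caveola genes tested, Cav1 included, 4 fell and 0 rose, with 0 higher at an unadjusted p under 0.05 in limma or limma-voom, where 16.2% of all tested genes fell. Cav2, the partner of caveolin-1, fell from 129 ± 13.1 to 84.4 ± 7.73 FPKM (log2 fold change -0.60, SE 0.08, adjusted p = 4.28e-04). Cavin2 and Ehd2, which shape the coat and the neck of the pit, fell by 0.40 and 0.25 on the log2 scale. The calls of Cav1, Cavin2 and Ehd2 were lost in the Xist, lung 1 and mesothelial fits (adjusted p from 0.124 to 0.826), and that of Cav2 in the lung 1 fit and the mesothelial fit (0.0854 in the latter). Cavin1, the cavin that caveolae need in every tissue, and Cavin3 had log2 fold changes of -0.14 and 0.14 (adjusted p = 0.0999 and 0.350).

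Hopx encodes a small homeodomain protein that does not bind DNA itself and acts with other nuclear proteins. The gene is at 77086988 to 77115121 on the minus strand of chromosome 5. The IncPBF lungs had 172, 158, 129, 159 and 156 FPKM and the sham lungs 237, 237, 208, 191 and 222 FPKM. Hopx was the only 1 of the 10 genes whose lowest sham lung was not sham lung 3. The log2 fold change was -0.50 (SE 0.09, adjusted p = 0.00159). The antisense gene Hopxos shares 412 exonic bases with Hopx, and at a mean of 1.04 FPKM against 187 it was a small part of the signal, but the counting is not stated to use strand. Of 8 genes for transcription regulators of the alveolar epithelium, 2 fell and 0 rose, a share near the 16.2% of all tested genes that fell. Gata6 fell by 0.21 and Foxa2 by 0.19 on the log2 scale (adjusted p = 0.0224 and 0.0133), and with an equal total per lung neither passed (adjusted p = 0.0826 and 0.175). Both calls were also lost in the Xist, lung 1 and mesothelial fits (adjusted p from 0.0551 to 0.598). Nkx2-1, the factor that holds lung epithelial identity, was at 62.9 ± 5.99 FPKM in the IncPBF lungs and 62.8 ± 3.31 in the sham lungs (adjusted p = 0.994). Klf5, Wwtr1, Tead1, Yap1 and Foxa1 had log2 fold changes of -0.22, -0.16, -0.12, -0.04 and 0.02 and did not pass. No regulator was higher at an unadjusted p under 0.05 in limma or limma-voom.

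Rtkn2, a relative of rhotekin, was the least abundant of the 10 genes and had the smallest adjusted p. It is at 67979570 to 68059740 on the plus strand of chromosome 10. The levels were 25.1, 24.3, 21.6, 26.4 and 29.7 FPKM in the IncPBF lungs and 45.2, 40.0, 34.0, 35.3 and 43.1 FPKM in the sham lungs. The groups did not overlap, with a log2 fold change of -0.63 (SE 0.10, adjusted p = 8.00e-04). The antisense gene Gm16212 shares 216 exonic bases with Rtkn2 and had a mean of 0.0957 FPKM against 32.5. Rtkn itself, at 2.47 ± 0.237 and 2.92 ± 0.136 FPKM, passed with a difference of -0.23 on the log2 scale (adjusted p = 0.0408), though not with an equal total per lung (adjusted p = 0.142) or without sham lungs 3 and 5 (adjusted p = 0.117), nor in the Xist, lung 1 and mesothelial fits (0.483, 0.528 and 0.318).

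Gprc5a, an orphan receptor induced by retinoic acid, is at 135065651 to 135084709 on the plus strand of chromosome 6. It was at 222, 219, 232, 213 and 232 FPKM in the IncPBF lungs and 301, 340.4, 261, 289.6 and 353 FPKM in the sham lungs. As for Ager, the IncPBF lungs were close to each other, with a coefficient of variation of 3.75% against 12.2%. Gprc5a fell by 0.46 on the log2 scale (SE 0.08, adjusted p = 0.00201). Of its family, Gprc5b fell by 0.36 on the log2 scale (adjusted p = 0.00824) at a far lower level of 5.29 ± 0.690 against 6.78 ± 0.335 FPKM, and Gprc5c differed by 0.20 (adjusted p = 0.216). The call of Gprc5b was lost in the Xist, lung 1 and mesothelial fits (adjusted p = 0.637, 0.624 and 0.461).

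Akap5 encodes a scaffold that brings protein kinase A and calcineurin to the membrane. The gene is at 76324891 to 76334153 on the plus strand of chromosome 12. It was at 55.1, 63.2, 47.8, 53.7 and 64.7 FPKM in the IncPBF lungs and 87.4, 74.2, 55.3, 67.5 and 83.4 FPKM in the sham lungs. Sham lung 3 fell inside the range of the IncPBF lungs. The log2 fold change was -0.36 (SE 0.13, adjusted p = 0.0480), and the exact two-sided permutation test of the means gave p = 0.0317. This call was lost on leaving out any 1 of 8 lungs (all but IncPBF lung 5 and sham lung 3), with adjusted p from 0.0514 to 0.110, and it passed without sham lung 3 at 0.00776. Of 8 partner genes, 4 fell and 2 rose, where 16.2% and 16.1% of all tested genes did. These calls were lost in the Xist, lung 1 and mesothelial fits, except that of Prkar2b, which held in the mesothelial fit. The subunits of the bound enzymes did not move in 1 direction. Prkar2a and Ppp3ca fell by 0.17 and 0.31 on the log2 scale, while Prkar2b and Ppp3cb rose by 0.34 and 0.27, and Prkar2a did not pass with an equal total per lung (adjusted p = 0.182).

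Spock2, also called testican-2, is a proteoglycan that AT1 cells release into the matrix, at 60106219 to 60135198 on the plus strand of chromosome 10. The IncPBF lungs had 95.8, 97.2, 85.9, 87.5 and 101 FPKM and the sham lungs 126, 135, 94.6, 98.1 and 157 FPKM. Sham lungs 3 and 4 lay among the IncPBF lungs, and the other sham lungs lay above them. The log2 fold change was -0.36 (SE 0.13, adjusted p = 0.0522), and the exact two-sided permutation p was 0.0635. Without sham lung 3 the adjusted p was 0.0155, and without sham lung 4 it was 0.0255. Spock1 and Spock3, with group means of at most 0.0182 and 0.0231 FPKM, were not tested.

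For the 8 genes whose groups did not overlap, the exact two-sided permutation test gave p = 0.00794 each, the smallest that 5 against 5 lungs can give. Lack of overlap fixes this value, so it adds nothing to the lack of overlap, which 11.2% of all tested genes showed in the lower direction.

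The order of the levels was nearly the same in both groups. In the sham lungs it ran Ager, Cav1, Gprc5a, Hopx, Emp2, Clic5, Spock2, Akap5, Pdpn, Rtkn2. The ranges over the lungs overlapped for the neighbours Cav1 and Gprc5a, Hopx and Emp2, Emp2 and Clic5, Clic5 and Spock2, and Akap5 and Pdpn, though within a lung only Clic5 and Spock2 changed places. Clic5 was above Spock2 in 3 of 5 sham lungs and below it in 5 of 5 IncPBF lungs, whose ranges for the 2 genes did not overlap (61.2 to 84.4 against 85.9 to 101 FPKM). In the IncPBF lungs ranges overlapped for Hopx and Emp2, Clic5 and Akap5, and Akap5 and Pdpn. As a share of the sum of the 10 genes, Ager made up 33.4% to 37.0% in IncPBF and 33.0% to 36.7% in sham lungs. The share of Clic5 was 3.81% to 4.89% and 4.48% to 6.01%. Between the groups the ranges of these shares overlapped for all 10 genes.

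The lungs also differed within a group in a shared way. Sham lung 3 was the lowest sham lung for 9 of the 10 genes, while it was the lowest for 23.2% of all tested genes. Sham lung 5 was the highest for 5 of the genes (21.3% of all tested genes), sham lung 2 for 3 (16.5%) and sham lung 1 for 2 (21.3%). IncPBF lung 5 was the highest IncPBF lung for 8 genes (25.3% of all). The SD of log2 values was larger in the sham lungs for 9 of the 10 genes, as for 66.1% of all tested genes. Sham lung 3 was also the lung with the highest airway marker sum, and sham lung 5 the one with the lowest. With the mean airway marker level as a covariate 8 of the 10 genes fell (14.2% of all tested genes), and without sham lungs 3 and 5 all 10 fell (13.4% of all). With the totals of all lungs set equal 8 fell (11.6% of all).

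**Figure D2:**
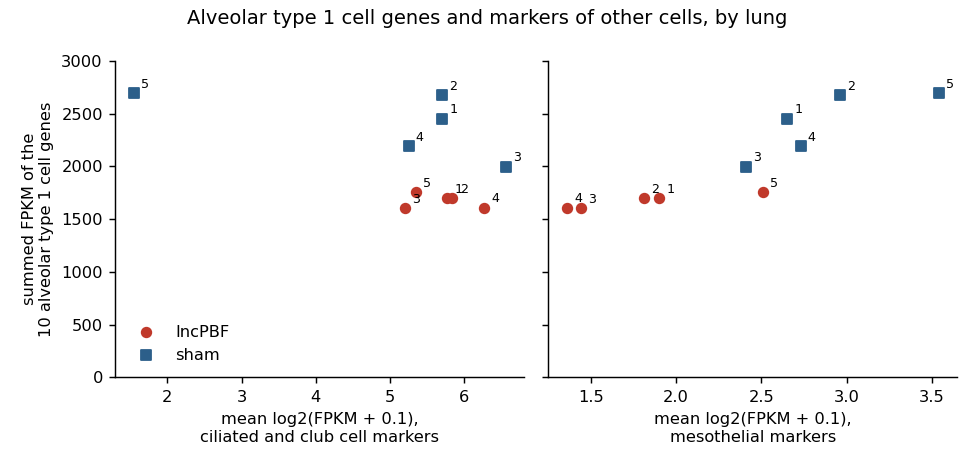
Summed FPKM of the 10 AT1 genes (vertical axis) in each lung against the mean log2(FPKM + 0.1) of the ciliated and club cell markers (left) and of the mesothelial markers (right), with lung numbers beside the points. Sham lung 5 stands far to the left for airway markers, and IncPBF lungs sit at 1606 to 1757 FPKM on the vertical axis, below all sham lungs.

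Genes of all epithelial cells did not move with the AT1 genes in the fit without a covariate. Of Epcam, Cdh1, Krt18, Cldn7, Elf3 and Esrp1, 0 passed in either direction (0 at an unadjusted p under 0.05, also in limma-voom), and their median log2 fold change was 0.03. In the mesothelial fit 1 of the 6 was lower, where 2.32% of all tested genes were. Their sum ran from 132 to 144 FPKM with IncPBF and from 119 to 146 in sham lungs. The sum of 119 was that of sham lung 5, the lung with the lowest airway marker sum. A low epithelial reference raises the relative levels in that lung. Set against the mean of Cdh1 and Epcam, the epithelial adhesion genes, in the same lung, 7 of the 10 AT1 genes were lower without overlap of the groups, while 9.15% of all tested genes were. Ager lay 3.86 to 4.01 log2 units above this reference with IncPBF and 4.21 to 4.90 above it with sham surgery. Gprc5a lay 2.52 to 2.60 and 2.74 to 3.45 above it. Clic5, Akap5 and Spock2 overlapped on this scale.

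Genes listed as markers of capillary endothelial cells, some of which all endothelial cells share, moved in part with the AT1 genes. Of 7 tested, 4 fell and 0 rose (0 higher at an unadjusted p under 0.05 in limma or limma-voom), with a median log2 fold change of -0.29, where 16.2% of all tested genes fell. The 4 calls, on Cdh5, Pecam1, Tek and Tie1, were lost in the Xist, lung 1 and mesothelial fits (adjusted p from 0.137 to 0.668). Pecam1 and Cdh5, adhesion genes of all endothelial cells, fell by 0.37 and 0.44 on the log2 scale (adjusted p = 0.00405 and 0.00699), and Tek by 0.47. Cldn5 and Emcn had log2 fold changes of 0.09 and 0.01 and did not pass. Set against the mean of Pecam1 and Cdh5 in the same lung, a reference chosen after the data were seen, 1 of the 10 AT1 genes (Emp2) stayed lower without overlap, where 2.12% of all tested genes did so and 38.9% were higher without overlap. Here Ager lay 1.64 to 1.77 log2 units above the reference with IncPBF and 1.72 to 1.91 with sham surgery. Mean differences on this scale ran from -0.34 for Clic5 and -0.23 for Rtkn2 to 0.04 for Akap5, Pdpn and Spock2, and they were not tested. For Clic5 the ranges only just met, with the highest IncPBF lung at -1.12 and the lowest sham lung at -1.14. Relative to Cdh1 and Epcam 7 of the 10 AT1 genes were thus lower without overlap. Relative to Pecam1 and Cdh5, which both fell themselves, the ranges of 9 of the 10 overlapped. A reference that falls brings other falling genes toward overlap, so these counts do not compare the AT1 genes with endothelial cells at large.

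**Figure D3:**
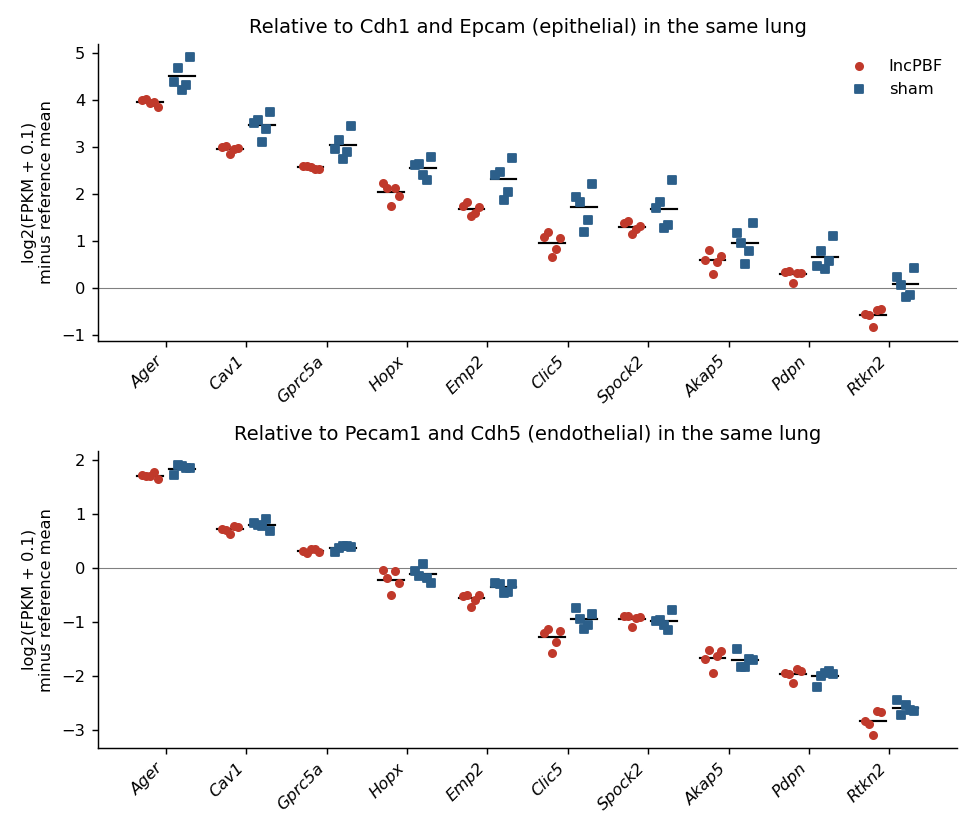
Levels of the 10 AT1 genes in each lung as log2(FPKM + 0.1) minus the mean of Cdh1 and Epcam (top) or of Pecam1 and Cdh5 (bottom) in the same lung; red circles are IncPBF lungs, blue squares sham lungs, black lines means (n = 5 each). Against Cdh1 and Epcam 7 of the 10 genes keep the groups apart, and against Pecam1 and Cdh5, which fell themselves, only Emp2 does.

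A further 12 genes that AT1 cells express showed the same direction for the most part. Of these, 9 fell and 0 rose, with a median log2 fold change of -0.47 and 0 higher at an unadjusted p under 0.05 in limma or limma-voom, where 16.2% of all tested genes fell. Of the 9, Lmo7 kept its call in the Xist fit and Vegfa in the mesothelial fit, and the other 7 lost theirs in the Xist, lung 1 and mesothelial fits (adjusted p from 0.0665 to 0.874), with Cldn18 at a log2 fold change of 0.03 in the last. Cyp2b10, a cytochrome P450, fell from 13.7 ± 5.97 to 4.19 ± 0.965 FPKM (log2 fold change -1.63, SE 0.25, adjusted p = 8.03e-04). Lmo7 and Limch1, which bind actin and myosin, fell by 1.00 and 0.67 on the log2 scale with no overlap. Col4a3 and Col4a4, collagen chains of the alveolar basement membrane, fell by 0.72 and 0.66. Vegfa, which AT1 cells supply to the capillaries, fell from 172 ± 5.98 to 139 ± 7.39 FPKM (log2 fold change -0.31, SE 0.05, adjusted p = 0.00165). Aqp5, Cldn18 and Krt7, a water channel, a tight junction protein and a keratin, fell by 0.25, 0.23 and 0.25, and none of these 3 passed with an equal total per lung (adjusted p = 0.0866, 0.0938 and 0.0700). Igfbp2, a marker of mature AT1 cells, was at 143 ± 19.7 FPKM in the IncPBF lungs and 123 ± 43.4 in the sham lungs and did not pass (adjusted p = 0.355). Lama3 and Sema3e, with log2 fold changes of -0.63 and -0.22, did not pass either (adjusted p = 0.0541 and 0.181).

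AT2 cells and the transitional state between AT2 and AT1 cells were described from 8 and 7 genes. Of the AT2 genes 4 fell and 0 rose (0 higher at an unadjusted p under 0.05 in limma or limma-voom), with a median log2 fold change of -0.43, where 16.2% of all tested genes fell. All 4 calls were lost in the Xist, lung 1 and mesothelial fits (adjusted p from 0.0581 to 0.722). Sftpb and Sftpa1, surfactant proteins, fell by 0.64 and 0.73 on the log2 scale, and Abca3 and Slc34a2, a lipid and a phosphate transporter, by 0.56 and 0.55. Sftpc, the gene most used to mark AT2 cells, was at 10428 ± 949 FPKM in the IncPBF lungs and 12095 ± 1237 in the sham lungs and did not pass (log2 fold change -0.21, adjusted p = 0.358). Etv5 had a log2 fold change of 0.01. At an unadjusted p under 0.05, 6 of the 8 AT2 genes were lower in limma and 7 in limma-voom. Of all 15388 tested genes 3297 and 3348 were. In limma-voom 5 of the AT2 genes were called lower, as were 17.0% of all tested genes. Among the transitional genes Krt8, the keratin most used for this state, was at 55.4 ± 6.59 and 54.8 ± 3.46 FPKM (adjusted p = 0.945). Areg, an epidermal growth factor receptor ligand, rose from 1.03 ± 0.225 to 2.95 ± 1.22 FPKM (log2 fold change 1.37, SE 0.25, adjusted p = 0.00204), and did not pass in the Xist, lung 1 and mesothelial fits (adjusted p = 0.316, 0.328 and 0.322). Krt19 fell by 0.22 on the log2 scale (adjusted p = 0.00563; 0.0674 with an equal total per lung and 0.168 in the lung 1 fit). Cldn4, Sfn, Lgals3 and Itgb6 had log2 fold changes of 0.66, 0.14, 0.06 and 0.06 and did not pass.

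**Figure D4:**
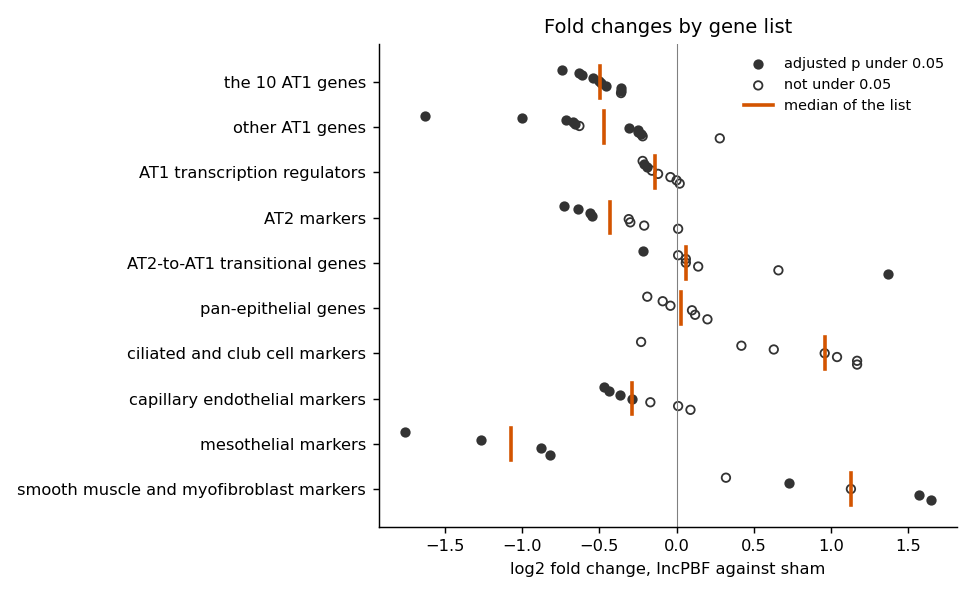
Log2 fold change (IncPBF against sham, n = 5 lungs each) of every tested gene in 10 lists, with filled points for adjusted p under 0.05 in limma, open points for the rest and an orange bar at the list median. The medians are -0.49 for the 10 AT1 genes, -0.47 for the other AT1 genes, -0.43 for AT2 markers and 0.03 for pan-epithelial genes.

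Other genes traced the AT1 genes closely across the 10 lungs. Likeness was the root mean square difference of log2(FPKM + 0.1) after each gene was centred on its own mean, where the median gene was 0.354 from Ager. The nearest genes outside the 10 were 6430548M08Rik (0.0481), Serping1 (0.0563), Tmem204 (0.0581), Afap1l1 (0.0593) and Ltbp4 (0.0599). Serping1 encodes the inhibitor of complement C1, and Ltbp4 a matrix protein that binds latent TGF-beta. Among the AT1 genes, Gprc5a was nearest to Ager (0.0517) and Clic5 farthest (0.216). Nearest to the mean profile of the 10 genes were Slfn5 (0.0369), Arhgef3 (0.0395), Eya2 (0.0458), Npnt (0.0485) and Afap1l1 (0.0540), with a median of 0.351 over the other genes. Npnt, a basement membrane protein, was at 334 ± 29.6 FPKM in the IncPBF lungs and 475 ± 73.3 in the sham lungs. The measure reads the same group difference that the test reads, and the lungs share their libraries.

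Markers of other tissues of the lung moved in part with the groups as well. Of all tested genes 16.2% fell and 16.1% rose. All 4 tested mesothelial genes, which mark the pleura, fell, with a median log2 fold change of -1.08, and the sums of all 5 listed genes were 46.6 to 75.9 FPKM with IncPBF against 82.1 to 158 in sham lungs. Msln, Upk3b and Lrrn4 overlapped between the groups, Upk1b did not, and Wt1 was at or under 0.241 FPKM in every lung. The calls of Msln, Upk3b and Lrrn4 were lost in the Xist and lung 1 fits (adjusted p from 0.273 to 0.529), and that of Upk1b in the lung 1 fit (0.124). Of 5 tested lymphatic genes 2 fell, Lyve1 by 0.83 and Flt4 by 0.56 on the log2 scale, while Prox1 had a log2 fold change of -0.06 and did not pass. Lyve1 kept its call in the Xist, lung 1 and mesothelial fits, and Flt4 did not (adjusted p = 0.221, 0.347 and 0.440). The sum of the 6 listed lymphatic genes was 72.1 to 114 FPKM with IncPBF against 143 to 209.7 in sham lungs. Most of this sum was Lyve1, at 78.0 ± 15.9 and 137 ± 15.9 FPKM, and 3 of the 5 tested genes did not pass. The sum therefore stands mainly for 1 gene and not for lymphatic cells. No listed marker was at 0 in all lungs. Of 5 smooth muscle and myofibroblast genes 3 rose and 0 fell (0 lower at an unadjusted p under 0.05 in limma or limma-voom), with sums of 277 to 549 FPKM with IncPBF against 86.1 to 216 in sham lungs. These 3 calls (Acta2, Actg2 and Myh11) were lost in the Xist, lung 1 and mesothelial fits (adjusted p from 0.162 to 0.613), and the median log2 fold change of the 5 genes went from 1.13 to 0.44, 0.54 and 0.34. Of 6 fibroblast genes 2 fell (Pdgfra by 1.36 and Npnt by 0.50) and 2 rose (Col1a1 and Col1a2). In the 3 fits the calls of Npnt, Col1a1 and Col1a2 were lost (adjusted p from 0.270 to 0.796), and that of Pdgfra was lost in the lung 1 fit. Col1a1 also did not pass without sham lungs 3 and 5 (adjusted p = 0.0613) or with airway markers as a covariate (0.0704). The part of these markers in the AT1 result was not tested beyond the covariate fits that follow.

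The sizes of the AT1 differences were affected unequally by the Xist, lung 1 and mesothelial fits, in which no AT1 gene was called. In the Xist fit the sizes changed little for most genes, for example -0.51 (SE 0.17, adjusted p = 0.122) for Ager and -0.62 (SE 0.18, adjusted p = 0.0776) for Rtkn2, while Hopx went to -0.33 (SE 0.14, adjusted p = 0.226). IncPBF lung 1 lay below every sham lung for 9 of the 10 genes, as it did for 25.4% of all tested genes. In the lung 1 fit, where its spread is assumed to be that of the sham lungs, the median log2 fold change over the 10 genes was -0.48. The group difference in the Xist fit rests mainly on the same lung, the only IncPBF lung with low Xist. The Xist and lung 1 fits are therefore not separate checks. In the mesothelial fit the median was -0.25, Rtkn2 was at -0.38 (SE 0.14, adjusted p = 0.159), Pdpn at -0.07 (SE 0.09, adjusted p = 0.733) and Spock2 at 0.06 (SE 0.15, adjusted p = 0.869). The mesothelial covariate itself went with the groups, at a mean log2 level of 1.36 to 2.51 in IncPBF and 2.41 to 3.54 in sham lungs. A covariate that nearly separates the groups takes up much of any group difference, so the calls lost in this fit assign no part to the mesothelial markers. The parts of the fistula and of sex in the AT1 result cannot be told apart with these lungs, and the part of the mesothelial markers was not tested further.

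**Figure D5:**
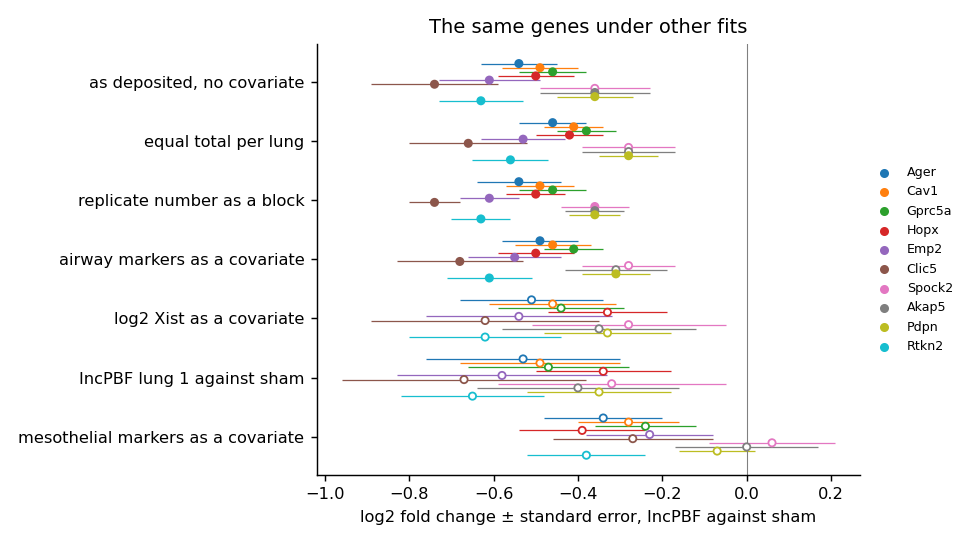
Log2 fold change with its standard error (IncPBF against sham) of the 10 AT1 genes under 7 fits, 1 colour a gene, with filled points where the adjusted p was under 0.05. The points stay left of 0 with log2 Xist as a covariate and for IncPBF lung 1 alone, but with wider errors and no filled point, and they move toward 0 with the mesothelial covariate.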

How the data were processed

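Lungs of 5 IncPBF and 5 sham mice (surgery at P7, collection at P14) were profiled by bulk RNA-sequencing. The authors deposited FPKM for each gene and lung with the gene lengths used. The submitters' processing notes list Bowtie 0.12.2 and the builds GRCm38, mm10 and hg38, with no role, and the counting software is not given in the sources used here. Gene coordinates were identical to GENCODE M21 on GRCm38 for 98.3% of 54409 shared genes and for all 10 AT1 genes. Multiplied by gene length, 100.0% of the FPKM values were whole fragments (tolerance 0.01). The library size behind the FPKM was 1.02 to 1.07 times the fragments on genes for IncPBF and 0.958 to 1.03 times for sham. The IncPBF columns carry another abbreviation than the sample titles, so the group but not the single sample is known, and lungs are named by column number.

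Genes with a mean of at least 0.5 FPKM (15388) were tested on log2(FPKM + 0.1), IncPBF against sham, with limma 3.58.1 (eBayes with trend) in R 4.3.3 and Benjamini-Hochberg adjustment over all of them. A fold change on this scale is understated for low genes. Python 3.11.15, pandas 2.3.3, numpy 2.4.6 and matplotlib 3.10.9 were used. The test was tested on simulated data. Lungs are separate samples by the labels, but no source ties them to litters or days. The 21 gene lists, that of the AT1 genes included, were chosen with earlier results of these data known. So were the named genes (all listed genes, the 5 nearest to Ager and to the mean profile, overlapping genes, Xist and Ddx3y). Alternatives were the pseudocount (1, 0.01), the filter (mean of at least 1, none), 3 scalings (equal totals, median of ratios, quantiles), a block of column numbers, no trend in eBayes, log2 Xist as a covariate, limma-voom on the recovered fragments, unlogged or logged values in the permutation test, and each lung left out. Added after the data were seen were sham lungs 3 and 5 left out, IncPBF lung 1 alone, airway or mesothelial markers as a covariate, and the endothelial reference. Promoter windows came from RefSeq on GRCm38.p6. The values of 1 gene on a list are not reported here.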

Additional observations from a re-analysis of the deposited data

How the results depend on the processing

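The count of 9 AT1 genes that fell was 8 to 10 under every pseudocount, filter, scaling and moderation tried, under limma-voom (10) and without sham lungs 3 and 5 (10), and leaving out each lung gave 8 to 10. It was 0 with log2 Xist as a covariate, 0 for IncPBF lung 1 alone against the sham lungs and 0 with mesothelial markers as a covariate. The count of 9 other AT1 genes that fell was 1 with log2 Xist and 1 with mesothelial markers as a covariate, and 6 to 10 when each lung was left out. This count was also 6 with no filter, 6 with an equal total per lung, 6 with airway markers as a covariate and 7 with no trend in eBayes. The count of AT1 genes that rose was 0 in all these fits. Of 25 alternatives per gene, Akap5 lost its call in 15, Spock2 gained one in 7, and the other 8 genes lost theirs in the 3 just named. Spock2 changed sign to 0.06 with the mesothelial covariate. The cause was not tested; the fit for IncPBF lung 1 alone has fewer samples. With an equal total per lung, all tested genes split into 1782 lower and 3559 higher, against 2490 and 2480 as deposited, the median of all genes moved to 0.09 and that of the AT1 genes to -0.41, and 11.6% of genes were lower. Genes tested at lower depth have wider counting error, but each AT1 gene had at least 1398 fragments per lung.

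Replicate numbers were used as a block in 1 alternative, in which all 10 AT1 genes and 9 of the other AT1 genes fell and 0 AT1 genes rose; Spock2 passed there at an adjusted p of 0.0165 in limma. The deviations of lungs with the same number from their group means correlated at -0.07 to 0.09, and 2 of 5 lungs matched best with their own number, so the numbers were not taken as pairs.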
